A study of Mus musculus with 6 samples.

Results

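The 10 plasma protein, chemokine and signalling genes described here belong to the acute phase response and were followed in sorted mouse hepatocytes. They were chosen by gene symbol, and all 10 of 10 were found among the 17275 genes of the count table: Saa1, Saa2, Lcn2, Orm1, Hp, Crp, Apcs, Cxcl1, Cxcl10 and Socs3. All 10 passed the filter on low counts. Libraries labelled Axin2-positive came from hepatocytes in which a reporter of Axin2 promoter activity was on, and the libraries they were set against were labelled Axin2-negative and came from hepatocytes in which it was off. Every mouse in both groups was C57BL/6 and carried Axin2rtTA;TetO-H2B-GFP, in which the Axin2 promoter drives a doxycycline-dependent activator of a nuclear green fluorescent protein. All mice drank doxycycline for 7 days, and their age is given as 8 weeks in the protocol and as postnatal day 63 in the sample labels. Non-parenchymal cells were removed, and the remaining hepatocytes were sorted by fluorescence. Each group had 3 libraries, numbered 1, 2 and 3 by a sequencing index that occurs once in each group. Where 3 values stand together, they belong to replicates 1, 2 and 3 in that order.

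The acute phase response is the change in liver protein output that follows infection or tissue damage. Interleukin-6 acts through the receptor subunit gp130 and the transcription factor STAT3, while interleukin-1 and tumour necrosis factor act through NF-κB, and C/EBP factors act with both. Hepatocytes are the main source of serum amyloid A, haptoglobin, orosomucoid and the pentraxins. Chemokines such as Cxcl1 attract neutrophils, Cxcl10 attracts T cells and is a known interferon target, and Socs3 shuts off signalling from gp130. In the mouse, serum amyloid A and serum amyloid P respond strongly to inflammation, whereas Crp responds weakly.

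The libraries held 75882611 to 103386648 reads assigned to genes, and the 10 genes took 0.275% to 0.367% of them. Axin2, whose promoter drove the sort, was at 2.40, 22.6 and 24.2 CPM (reads scaled to library size, with TMM factors) in libraries labelled Axin2-positive and at 3.04, 3.745 and 5.75 CPM in libraries labelled Axin2-negative. In replicate 1 it was lower in the library labelled Axin2-positive, which goes against that label, and each direction over 6 libraries carries this limit. The hepatocyte markers summed to 99610 to 193200 CPM in libraries labelled Axin2-positive and 94540 to 191400 CPM in libraries labelled Axin2-negative. The Y-linked gene Ddx3y had 7164 reads in library 2 labelled Axin2-positive and 6759 reads in library 2 labelled Axin2-negative, and 0 to 3 reads in the other 4. Sex therefore differed between replicate numbers and was the same within each.

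Per transcript length, the 10 genes covered a wide range of levels, and their order was the same in both groups. In the authors' deposited table, where each group has a single FPKM value (fragments scaled by transcript length and depth), Hp led with 1668 FPKM in cells labelled Axin2-positive and 1524 FPKM in cells labelled Axin2-negative. It encodes haptoglobin, which binds free haemoglobin. The authors' deposited table then lists Orm1 (773 FPKM in cells labelled Axin2-positive and 680 FPKM in cells labelled Axin2-negative), Crp (305 FPKM in cells labelled Axin2-positive and 264 FPKM in cells labelled Axin2-negative), Apcs (151 FPKM in cells labelled Axin2-positive and 112 FPKM in cells labelled Axin2-negative) and Saa1 (57.8 FPKM in cells labelled Axin2-positive and 46.7 FPKM in cells labelled Axin2-negative). Lower in that table stood Saa2 (33.3 FPKM in cells labelled Axin2-positive and 18.4 FPKM in cells labelled Axin2-negative), Cxcl1 (32.4 FPKM in cells labelled Axin2-positive and 18.2 FPKM in cells labelled Axin2-negative), Lcn2 (21.1 FPKM in cells labelled Axin2-positive and 8.86 FPKM in cells labelled Axin2-negative), Socs3 (5.99 FPKM in cells labelled Axin2-positive and 5.42 FPKM in cells labelled Axin2-negative) and Cxcl10 (4.69 FPKM in cells labelled Axin2-positive and 2.53 FPKM in cells labelled Axin2-negative), as deposited by the authors.

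**Figure D1:**
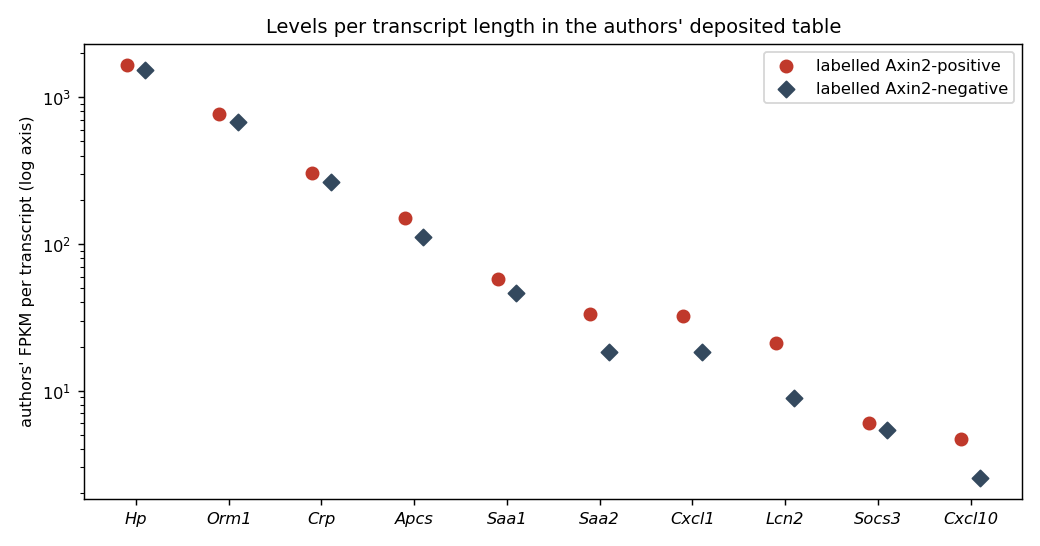
Level of each gene per transcript length in the authors' deposited table (FPKM, log axis), with 1 value per group and no error, for cells labelled Axin2-positive (circles) and Axin2-negative (diamonds). Hp is highest at 1668 FPKM in cells labelled Axin2-positive and 1524 FPKM in cells labelled Axin2-negative and Cxcl10 lowest at 4.69 FPKM in cells labelled Axin2-positive and 2.53 FPKM in cells labelled Axin2-negative, and each gene's circle lies above its diamond in value.

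Several of the genes are neighbours on GRCm38, the assembly also called mm10. Saa1 (chromosome 7, 46740497 to 46742980, minus strand) and Saa2 (chromosome 7, 46751790 to 46754313, plus strand) are protein-coding genes of 4 exons each that lie head to head, 8.81 kb apart. Crp (chromosome 1, 172698055 to 172833031) and Apcs (chromosome 1, 172893961 to 172895041) are 60.9 kb apart by these GENCODE spans. The span of Crp in the authors' deposited table is shorter, 172698056 to 172699966, which puts them 194.0 kb apart. Cxcl1 (chromosome 5, 90891241 to 90893115) and Cxcl10 (chromosome 5, 92346638 to 92348889) share a chromosome. The others are Lcn2 (chromosome 2, 32384633 to 32388252), Orm1 (chromosome 4, 63344560 to 63348163), Hp (chromosome 8, 109575128 to 109579172) and Socs3 (chromosome 11, 117966079 to 117970047).

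RefSeq promoters were matched for 8 of the 10 genes, all but Orm1 and Hp. Those of the 6 genes that differed over 2-fold within replicate 2 are printed, so that the genes with the widest spread can be compared. They lie at chr7:46742931-46743230 (Saa1, minus strand), chr7:46751583-46751882 (Saa2, plus), chr2:32387690-32387989 (Lcn2, minus), chr1:172895005-172895304 (Apcs, minus), chr5:90890995-90891294 (Cxcl1, plus) and chr5:92348840-92349139 (Cxcl10, minus). Each runs from 250 bases before the RefSeq transcript start to 50 bases after it, 5′ to 3′ on the gene's strand (GRCm38.p6). Capitals mark matches on either strand to C/EBP (TTGCNNAA), STAT (TTCNNNGAA), ISRE (GAAANNGAAA), the TATA box (TATAAA) or the kappa-B motif, and matches that overlap run together.
Saa1: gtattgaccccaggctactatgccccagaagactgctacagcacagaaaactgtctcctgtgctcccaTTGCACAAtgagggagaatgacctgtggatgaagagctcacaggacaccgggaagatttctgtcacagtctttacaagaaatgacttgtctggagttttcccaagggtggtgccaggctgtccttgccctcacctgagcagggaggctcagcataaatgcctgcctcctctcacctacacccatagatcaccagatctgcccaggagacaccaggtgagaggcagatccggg
Saa2: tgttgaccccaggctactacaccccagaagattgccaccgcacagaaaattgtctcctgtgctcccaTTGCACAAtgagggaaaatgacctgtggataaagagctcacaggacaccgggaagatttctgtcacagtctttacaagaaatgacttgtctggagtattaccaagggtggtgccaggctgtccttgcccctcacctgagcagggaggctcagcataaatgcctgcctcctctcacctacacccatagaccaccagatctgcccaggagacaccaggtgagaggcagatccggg
Lcn2: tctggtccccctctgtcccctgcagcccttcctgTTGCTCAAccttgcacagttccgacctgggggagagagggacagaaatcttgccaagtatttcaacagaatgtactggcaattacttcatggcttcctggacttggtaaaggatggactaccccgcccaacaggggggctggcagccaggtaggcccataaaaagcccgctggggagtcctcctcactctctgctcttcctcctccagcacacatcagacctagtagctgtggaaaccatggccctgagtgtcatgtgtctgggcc
Apcs: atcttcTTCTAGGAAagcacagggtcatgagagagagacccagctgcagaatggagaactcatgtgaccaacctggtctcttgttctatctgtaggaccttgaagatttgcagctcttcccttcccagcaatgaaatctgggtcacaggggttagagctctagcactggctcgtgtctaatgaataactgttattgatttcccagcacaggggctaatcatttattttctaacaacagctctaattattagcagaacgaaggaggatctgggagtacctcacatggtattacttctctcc
Cxcl1: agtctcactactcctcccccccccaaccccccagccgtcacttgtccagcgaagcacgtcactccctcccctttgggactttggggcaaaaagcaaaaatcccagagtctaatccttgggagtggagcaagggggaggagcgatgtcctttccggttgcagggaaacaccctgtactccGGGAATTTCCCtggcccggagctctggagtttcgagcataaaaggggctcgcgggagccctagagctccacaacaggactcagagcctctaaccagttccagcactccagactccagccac
Cxcl10: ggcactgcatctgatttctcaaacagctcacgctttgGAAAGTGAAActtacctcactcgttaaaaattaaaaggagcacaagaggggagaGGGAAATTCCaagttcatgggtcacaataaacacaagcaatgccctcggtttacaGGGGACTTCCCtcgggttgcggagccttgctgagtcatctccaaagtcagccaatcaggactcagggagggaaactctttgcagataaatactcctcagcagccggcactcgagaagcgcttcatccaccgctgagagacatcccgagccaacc

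The Saa1 and Saa2 promoters were identical at 287 of 299 aligned bases (96.0%), and each held a C/EBP match, at -182 to -175 in Saa1 and -183 to -176 in Saa2. Lcn2 also held a C/EBP match, which 10.8% of all 32851 RefSeq promoters of this length contain. The kappa-B motif occurred in Cxcl1, at -71 to -61 with overlapping matches on both strands, and in Cxcl10 at -159 to -150 and -104 to -94, against 8.46% of all promoters. Cxcl10 also held an ISRE, the interferon-stimulated response element, at -213 to -204 (3.44% of all promoters). Apcs held a STAT match at -244 to -236 (8.30% of all promoters), and so did Socs3, at -154 to -146. A TATA box as spelled occurred in Crp (13.6% of all promoters). These are matches of letters in a short window and do not show binding.

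Serum amyloid A genes encode proteins of high-density lipoprotein that rise sharply in inflammation. Saa1 was at 14.1, 61.9 and 19.7 CPM in libraries labelled Axin2-positive, against 14.5, 26.1 and 29.6 CPM in libraries labelled Axin2-negative. The library labelled Axin2-positive 2 was the highest of all 6, while in replicate 3 the order was the opposite, so the groups overlapped. Saa2 was at 8.04, 33.5 and 9.82 CPM in libraries labelled Axin2-positive, against 7.38, 7.06 and 13.0 CPM in libraries labelled Axin2-negative. Like Saa1 it was highest in the library labelled Axin2-positive 2, and it was 4.75-fold higher there than in its partner. Saa1 averaged 31.9 ± 26.1 CPM in libraries labelled Axin2-positive and 23.4 ± 7.89 CPM in libraries labelled Axin2-negative (SD, n = 3 each). Fitted over 6 libraries, the log2 fold change came to 0.45 (SE 0.60) for Saa1 and 0.90 (SE 0.60) for Saa2, each with an edgeR adjusted p of 0.999. Both turned negative without the library labelled Axin2-positive 2, to -0.47 for Saa1 and -0.038 for Saa2. The 2 transcripts were 94.4% identical over 606 aligned bases, and 13.2% of the 50-base windows of Saa1 also occurred in Saa2, so the split of reads between them is uncertain. There were 1.75, 1.85 and 2.01 reads of Saa1 for each read of Saa2 in libraries labelled Axin2-positive, and 1.96, 3.70 and 2.27 in libraries labelled Axin2-negative.

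The pentraxins Crp (C-reactive protein) and Apcs (serum amyloid P component) bind microbial surfaces and damaged cells. Crp varied little, at 436, 451 and 510 CPM in libraries labelled Axin2-positive, against 428, 352 and 492 CPM in libraries labelled Axin2-negative. Its log2 fold change was 0.13 (SE 0.17, edgeR adjusted p = 0.999), and 0.017 to 0.26 when single libraries were left out, with the lowest value without the library labelled Axin2-negative 2. Apcs was at 137.5, 105.6 and 166.0 CPM in libraries labelled Axin2-positive, against 134.1, 48.7 and 151.6 CPM in libraries labelled Axin2-negative. The library labelled Axin2-negative 2 was lowest for both pentraxins. For Apcs the log2 fold change of 0.29 (SE 0.43, edgeR adjusted p = 0.999) stood at -0.067 without that library.

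Lcn2 encodes lipocalin 2, which withholds iron from bacteria by binding their siderophores. It was at 8.54, 24.0 and 21.1 CPM in libraries labelled Axin2-positive, against 8.14, 2.66 and 11.3 CPM in libraries labelled Axin2-negative. It spread most of the 10 genes, 8.88-fold between the highest and the lowest library after an offset of 0.05 CPM, and the lowest rested on 214 reads (exact 95% binomial interval 186.3 to 244.7, counting error only). The library labelled Axin2-positive 1 lay below the library labelled Axin2-negative 3, so the groups overlapped. Lcn2 averaged 17.9 ± 8.24 CPM in libraries labelled Axin2-positive and 7.38 ± 4.38 CPM in libraries labelled Axin2-negative (SD, n = 3 each). The fitted log2 fold change was 1.28 (SE 0.61, edgeR adjusted p = 0.999), and between 0.88 and 1.73 when single libraries were left out. Orm1, which encodes the plasma carrier orosomucoid and belongs to the same lipocalin family, was at 685, 485 and 540 CPM in libraries labelled Axin2-positive, against 663, 498 and 448 CPM in libraries labelled Axin2-negative. Hp was at 1821, 2420 and 1765 CPM in libraries labelled Axin2-positive, against 1878, 2060 and 1514 CPM in libraries labelled Axin2-negative. The log2 fold change was 0.088 (SE 0.22) for Orm1 and 0.14 (SE 0.20) for Hp, each with an edgeR adjusted p of 0.999. Their sign turned with the library left out: Orm1 stood at -0.068 without the library labelled Axin2-positive 1 and at -0.024 without the library labelled Axin2-negative 3, and Hp at -0.020 without the library labelled Axin2-positive 2.

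Both chemokines were highest in replicates 2 and 3 of the libraries labelled Axin2-positive. Cxcl1 was at 18.4, 26.7 and 36.5 CPM there, against 19.0, 12.2 and 18.1 CPM in libraries labelled Axin2-negative. The library labelled Axin2-positive 1 lay between the libraries labelled Axin2-negative, while replicates 2 and 3 lay above all of them. Within the pairs Cxcl1 was 0.969-fold, 2.19-fold and 2.02-fold the partner's level. Cxcl1 averaged 27.2 ± 9.04 CPM in libraries labelled Axin2-positive and 16.4 ± 3.69 CPM in libraries labelled Axin2-negative (SD, n = 3 each). On the log2 scale its fitted difference was 0.73 (SE 0.29, unadjusted p = 0.0456, edgeR adjusted p = 0.999), with a range of 0.46 to 0.94 when single libraries were left out. Cxcl10 was at 2.53, 7.69 and 3.93 CPM in libraries labelled Axin2-positive, against 2.41, 1.94 and 2.98 CPM in libraries labelled Axin2-negative. The library labelled Axin2-positive 2 was again the highest, and its partner, with 156 reads, the lowest (exact 95% binomial interval 132.5 to 182.5). The log2 fold change was 0.95 (SE 0.43, edgeR adjusted p = 0.999), and 0.40 to 1.25 when single libraries were left out, with the lowest value without the library labelled Axin2-positive 2. Cxcl10 shares 133 exonic bases with Art3 on the opposite strand, and Art3 had 0 to 10 reads in any library.

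Socs3, the feedback inhibitor of gp130 and STAT3 signalling, was the steadiest of the 10. It was at 11.99, 11.9 and 14.1 CPM in libraries labelled Axin2-positive, against 12.6, 9.95 and 11.2 CPM in libraries labelled Axin2-negative. Its lowest and highest libraries differed 1.41-fold, and its log2 fold change was 0.17 (SE 0.13, edgeR adjusted p = 0.999), or 0.082 to 0.25 when single libraries were left out.

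**Figure D2:**
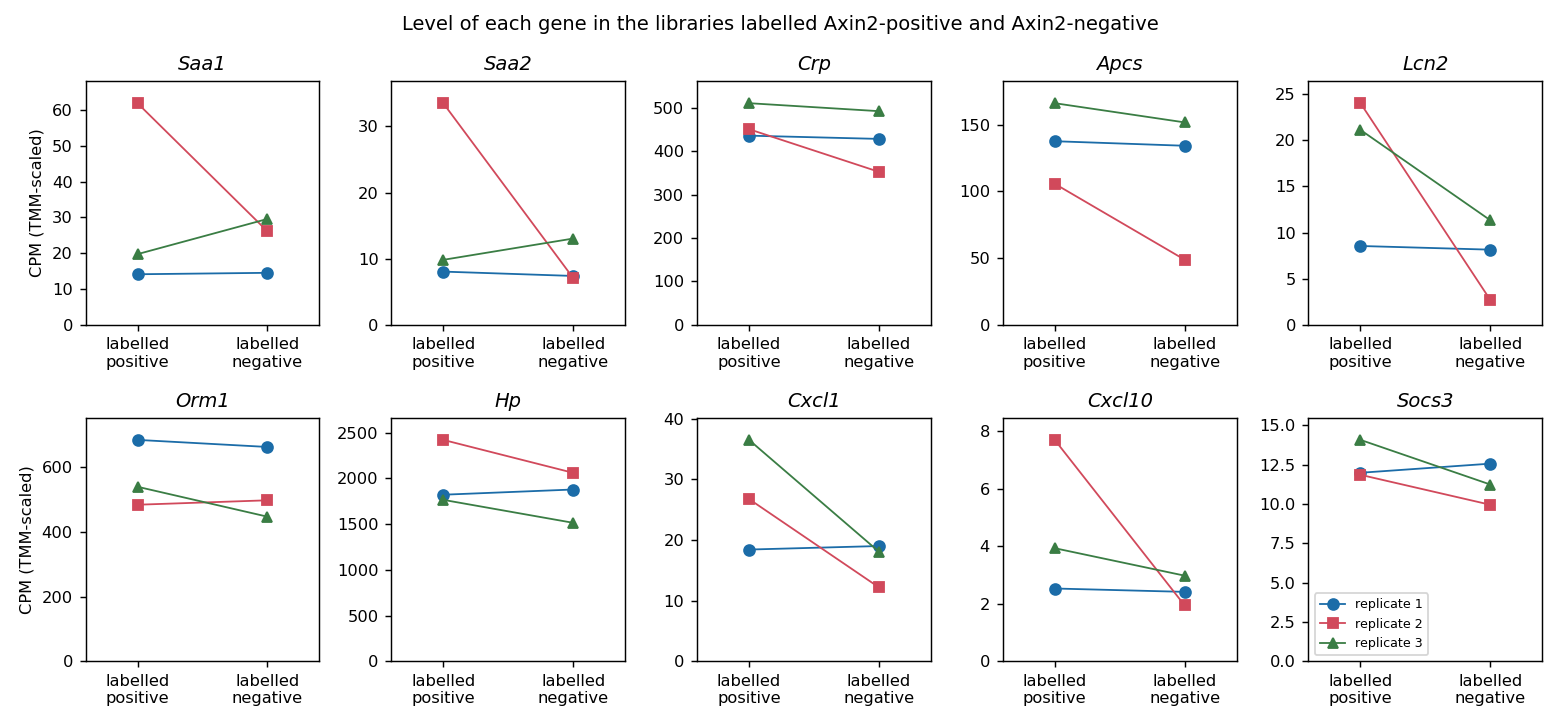
TMM-scaled CPM of each gene (vertical axes from 0) in the libraries labelled Axin2-positive (left) and Axin2-negative (right), with a line joining the libraries of a replicate number. The lines of replicate 1 are nearly flat, and Saa1, Saa2, Lcn2 and Cxcl10 fall steeply to the right in replicate 2.

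The libraries were then compared by label. The replicate number was left out of this first model, so differences between the numbers were part of its error. With edgeR's quasi-likelihood test over 6 libraries, 0 of the 10 genes passed an adjusted p of 0.05 in either direction, beside 0% of all 12343 genes tested. At an unadjusted p under 0.05 it listed 1 of the 10, Cxcl1, beside 2.26% of all genes, and DESeq2 and limma-voom also called 0 of the 10. All 10 had a positive fitted log2 fold change, with a median of 0.37, beside 49% of all genes and a median of -0.0047. In no gene of the 10 did the groups separate, whereas 3.44% of all genes lay higher and 3.77% lower in every library labelled Axin2-positive. In bulk samples, fewer cells of a type and less RNA per cell cannot be told apart.

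**Figure D3:**
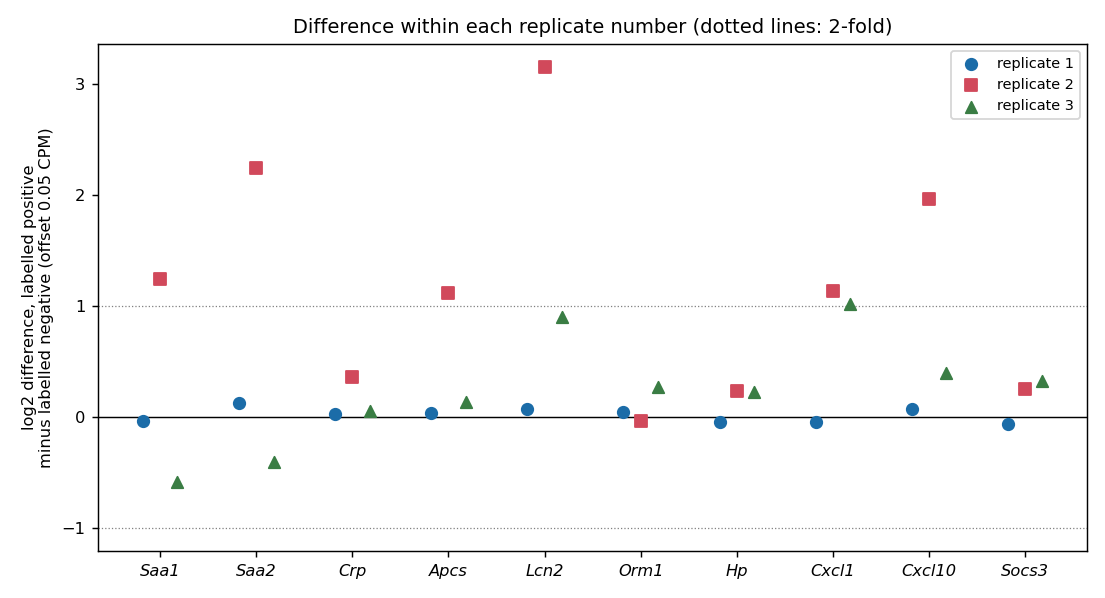
Log2 ratio of each gene, library labelled Axin2-positive over library labelled Axin2-negative of a replicate number (offset of 0.05 CPM), with dotted lines at 2-fold. Replicate 1 lies between -0.069 and 0.12, replicate 2 reaches 3.15 in Lcn2, and replicate 3 runs from -0.58 in Saa1 to 1.01 in Cxcl1.

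The size of the difference was not the same in each replicate number. In replicate 1 the 10 genes differed by -0.069 to 0.12 on the log2 scale, with an SD of 0.063 beside 0.218 over all tested genes. The tested genes include ones with far fewer reads, so these SDs are not matched for level. In that replicate 0 of the 10 were over 2-fold higher, beside 0.275% of all genes. In replicate 2 the library labelled Axin2-positive was over 2-fold higher for 6 of the 10 (Saa1, Saa2, Lcn2, Apcs, Cxcl1 and Cxcl10), beside 3.41% of all genes. In replicate 3 it was over 2-fold higher for 1 of the 10, Cxcl1, beside 2.41% of all genes. The library labelled Axin2-positive was higher for 6, 9 and 8 of the 10 genes, beside 50.2%, 49.1% and 49.5% of all genes. For 4 genes, Lcn2, Crp, Apcs and Cxcl10, it was higher in all 3 replicate numbers, and for 0 genes lower in all 3, beside 19.5% and 20.1% of all genes (39.7% in either direction). For 7 of the 10 it was higher in both replicates 2 and 3, beside 35.3% of all genes. The library labelled Axin2-positive 2 was the highest of 6 for 5 of the 10 genes, beside 24.6% of all genes, and the library labelled Axin2-negative 2 the lowest for 7 of the 10, beside 17.7%. Whether the pairs differ from each other could not be tested, since each pair holds 1 library per group. Replicate 2 was also the only number with high Ddx3y, so sex and other features of that pair cannot be told apart.

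With the replicate number added as a block, edgeR called 0 of the 10, beside 0% of all genes. Under an unadjusted p of 0.05 it listed 1 of the 10, Cxcl1 (0.0373), beside 1132 of all 12343 genes. The edgeR adjusted p with the block ran from 0.45 for Lcn2 and Cxcl1 to 0.79 for Saa1. With the block the SE was 0.36 for Saa1, 0.11 for Orm1, 0.12 for Hp and 0.62 for Lcn2. When both libraries of replicate 1 were left out, the blocked fit called 1 of the 10 genes higher and 0 lower, beside 3.43% of all genes higher and 4.01% lower (7.44% together). That gene was Cxcl1 (log2 fold change 1.07, SE 0.090, edgeR adjusted p = 0.00734, higher in 2 of 2 pairs). Lcn2 had a larger estimate with a larger error (1.96, SE 0.53, adjusted p = 0.0901), and Cxcl10 reached 1.19 (SE 0.39, adjusted p = 0.133). The adjusted p was 0.172 for Apcs, 0.158 for Socs3, 0.195 for Hp, 0.347 for Crp, 0.406 for Saa2, 0.601 for Orm1 and 0.654 for Saa1. This fit has 1 residual degree of freedom, and the pair was left out because it was known to differ little, so its calls are not independent evidence. Of the 10 genes, 1 was marked significant in the authors' deposited table, Lcn2, at 2.38-fold by FPKM, cells labelled Axin2-positive over cells labelled Axin2-negative (q = 0.00961), while Cxcl1 was at 1.78-fold with q = 0.0617 there. That table marked 0.701% of its 13843 tested transcripts, and it pools the 3 libraries of a group, including the library labelled Axin2-positive 1.

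**Figure D4:**
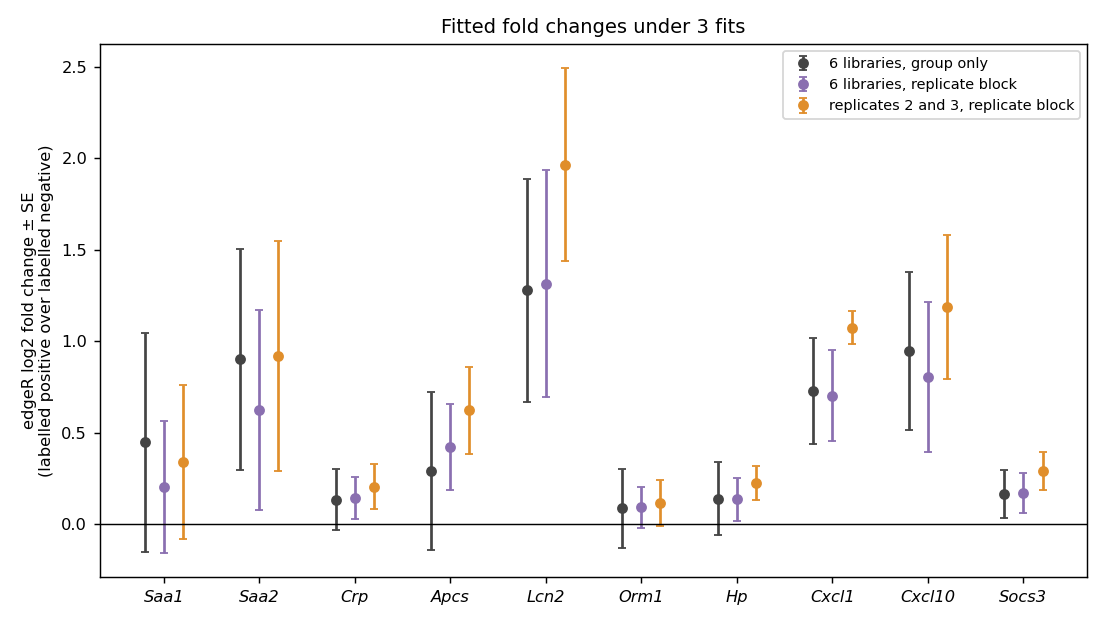
edgeR log2 fold change (libraries labelled Axin2-positive over those labelled Axin2-negative) with its SE for each gene under 3 fits. Cxcl1 has the smallest error relative to its size in the fit of replicates 2 and 3 (1.07, SE 0.090). The error bars of Saa1 and Orm1 include 0 in all 3 fits.

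Levels were then compared between the replicate numbers, whatever the label, with the group kept in the model. The Y-linked gene Ddx3y was high in replicate 2 alone, so sex and other differences of that number cannot be told apart. edgeR's test called 0 of the 10 genes, beside 11.1% of all genes. At an unadjusted p under 0.05 it listed 3 of the 10 (Saa1, Orm1 and Apcs), beside 32.3% of all genes. In replicate 1, Orm1 had 685 CPM in the library labelled Axin2-positive and 663 CPM in the library labelled Axin2-negative, and the other 4 libraries had 448 to 540 CPM, with an adjusted p of 0.117. DESeq2's likelihood ratio test called 2 of the 10, Orm1 (adjusted p = 0.00111) and Hp (0.00654), beside 38.3% of all genes, and limma-voom called 0, beside 13.7%. Leaving out single libraries gave 0 to 2 calls among the 10 with edgeR. Cxcl1 was called without the library labelled Axin2-positive 1 (beside 13.1% of all genes), and Apcs without the library labelled Axin2-positive 2 (beside 3.03%). Cxcl1 and Hp were called without the library labelled Axin2-negative 1 (beside 21.3% of all genes), and Saa1 and Saa2 without the library labelled Axin2-negative 2 (beside 4.54%). Without either library of replicate 3 the count was 0, beside 0.772% of all genes for the library labelled Axin2-positive and 0.8% for the library labelled Axin2-negative.

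Other acute phase genes were counted in the same fits. Of 31 tested, edgeR called 0 over 6 libraries, with a median log2 fold change of -0.23. At an unadjusted p under 0.05 it listed 2, beside 2.26% of all genes. The fit of replicates 2 and 3 called 3 of 30 higher and 7 lower, beside 3.43% of all genes higher and 4.01% lower, with a median of -0.37. Between the replicate numbers 9 of the 31 were called (29%), beside 11.1% of all genes. Both this count and the share of all genes called changed when single libraries were left out. The count was 14 without library 1 labelled Axin2-positive, beside 13.1% of all genes, and 3 without library 2 of that label, beside 3.03%. It was 0 without either library of replicate 3, beside 0.772% (labelled Axin2-positive) and 0.8% (labelled Axin2-negative). Without library 1 labelled Axin2-negative it was 27, beside 21.3%, and without library 2 of that label 7, beside 4.54%. The 3 higher genes, named after their values were seen, were Orm2, Steap4 and Vnn1. Orm2, a paralogue of Orm1, was at 13.4, 54.7 and 81.0 CPM in libraries labelled Axin2-positive, against 17.2, 7.52 and 22.9 CPM in libraries labelled Axin2-negative (log2 fold change 2.33, adjusted p = 0.0120 in the fit of replicates 2 and 3). Its transcript was 91.0% identical to that of Orm1, and 20.4% of the 50-base windows of Orm1 occurred in it, so its count is uncertain. Saa3, which macrophages and fat cells also make, was at 1.58, 14.2 and 3.69 CPM in libraries labelled Axin2-positive, against 1.08, 1.44 and 1.98 CPM in libraries labelled Axin2-negative, and did not pass (adjusted p = 0.0942 in that fit). Among those lower were the metal-binding gene Mt2 (88.0, 1.29 and 50.5 CPM in libraries labelled Axin2-positive, against 87.2, 4.55 and 145.2 CPM in libraries labelled Axin2-negative, adjusted p = 0.00530), the hepcidin gene copy Hamp2 (438, 12.2 and 258 CPM in libraries labelled Axin2-positive, against 430, 23.8 and 528 CPM in libraries labelled Axin2-negative, adjusted p = 0.0115) and the fibrinogen chain Fga (8473, 4508 and 3953 CPM in libraries labelled Axin2-positive, against 8466, 5973 and 6386 CPM in libraries labelled Axin2-negative, adjusted p = 0.0419). Mt2 and Hamp2 also differed between the replicate numbers (edgeR adjusted p = 0.0169 and 0.00935). Of the 13 negative acute phase genes, whose proteins fall in inflammation, the fit of replicates 2 and 3 called 0 higher and 2 lower, beside the same shares, namely the plasma glycoprotein Ahsg (adjusted p = 0.0163) and the apolipoprotein Apoa1 (0.0382).

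Upstream signalling genes were described in the same way. Over 6 libraries DESeq2 and limma-voom also called 0 genes in each list. Of 22 tested genes of interleukin-6 and STAT3 signalling, edgeR called 0 over 6 libraries. It listed 0 under an unadjusted p of 0.05, beside 2.26% of all genes. The fit of replicates 2 and 3 called 0 of 21 higher and 5 lower, beside 3.43% of all genes higher and 4.01% lower. These were Il6ra, Cebpb, Cish, Bcl3 and Il10rb, the last 2 named after their values were seen. Il6ra, the ligand-binding receptor of interleukin-6, was at 42.2, 11.7 and 21.7 CPM in libraries labelled Axin2-positive, against 42.6, 24.2 and 43.2 CPM in libraries labelled Axin2-negative (log2 fold change -1.02, adjusted p = 0.00751). The factor gene Cebpb was at 44.3, 63.7 and 79.9 CPM in libraries labelled Axin2-positive, against 45.6, 118.4 and 142.7 CPM in libraries labelled Axin2-negative (-0.86, adjusted p = 0.0126). Both were lower in replicates 2 and 3 of the libraries labelled Axin2-positive and nearly equal in replicate 1. Stat3 itself was at 141.2, 130.9 and 125.1 CPM in libraries labelled Axin2-positive, against 140.6, 136.8 and 130.6 CPM in libraries labelled Axin2-negative (-0.062, adjusted p = 0.733). Socs2, a relative of Socs3 that acts on growth hormone signalling, differed between the replicate numbers (edgeR adjusted p = 0.00546), at 94.2 CPM in the first library labelled Axin2-positive, 95.2 CPM in the first labelled Axin2-negative and 15.8 to 36.1 CPM in the other 4 libraries. Of 27 genes of interleukin-1, tumour necrosis factor and NF-κB signalling, edgeR called 0 over 6 libraries. It also called 0 in the fit of replicates 2 and 3, with median log2 fold changes of -0.058 and -0.058. At an unadjusted p under 0.05 it listed 0 over 6 libraries, beside 2.26% of all genes. In the fit of replicates 2 and 3 it listed 5, beside 3356 of all 12385 genes. Between the replicate numbers 8 of these 27 were called, beside 11.1% of all genes, with the NF-κB inhibitor Nfkbia lowest in p (adjusted p = 0.00759). That count was 3 without either library of replicate 2, beside 3.03% (labelled Axin2-positive) and 4.54% (labelled Axin2-negative) of all genes. It was 0 without either library of replicate 3, beside 0.772% and 0.8%.

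Interferon-induced genes, which share regulation with Cxcl10, went both ways. Of 32 tested, edgeR called 0 over 6 libraries, with 1 under an unadjusted p of 0.05, beside 2.26% of all genes. The fit of replicates 2 and 3 called 3 higher and 4 lower, beside 3.43% of all genes higher and 4.01% lower. Irf7, a transcription factor of the interferon response, was at 40.4, 40.8 and 19.2 CPM in libraries labelled Axin2-positive, against 42.6, 72.7 and 35.0 CPM in libraries labelled Axin2-negative (-0.85, adjusted p = 0.00909). The 3 higher genes were Gbp7, Rsad2 and Isg15, named after their values were seen. Of 9 other chemokine genes tested, edgeR called 0 over 6 libraries and 0 of 8 in the fit of replicates 2 and 3. Over 6 libraries Cxcl11 alone was under an unadjusted p of 0.05 (edgeR, 0.0353), beside 2.26% of all genes. In the fit of replicates 2 and 3, 5 of the 8 were, beside 3356 of all 12385 genes. Cxcl9, which shares its receptor with Cxcl10, was at 11.9, 22.7 and 23.4 CPM in libraries labelled Axin2-positive, against 10.2, 4.13 and 18.4 CPM in libraries labelled Axin2-negative. Cxcl12, the most abundant of these by reads, was at 298, 158 and 263 CPM in libraries labelled Axin2-positive, against 305, 225 and 350 CPM in libraries labelled Axin2-negative. The high-density lipoprotein receptor Scarb1, which also binds serum amyloid A, was lower in the fit of replicates 2 and 3 (190, 118 and 137 CPM in libraries labelled Axin2-positive, against 194, 231 and 193 CPM in libraries labelled Axin2-negative, adjusted p = 0.0483).

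**Figure D5:**
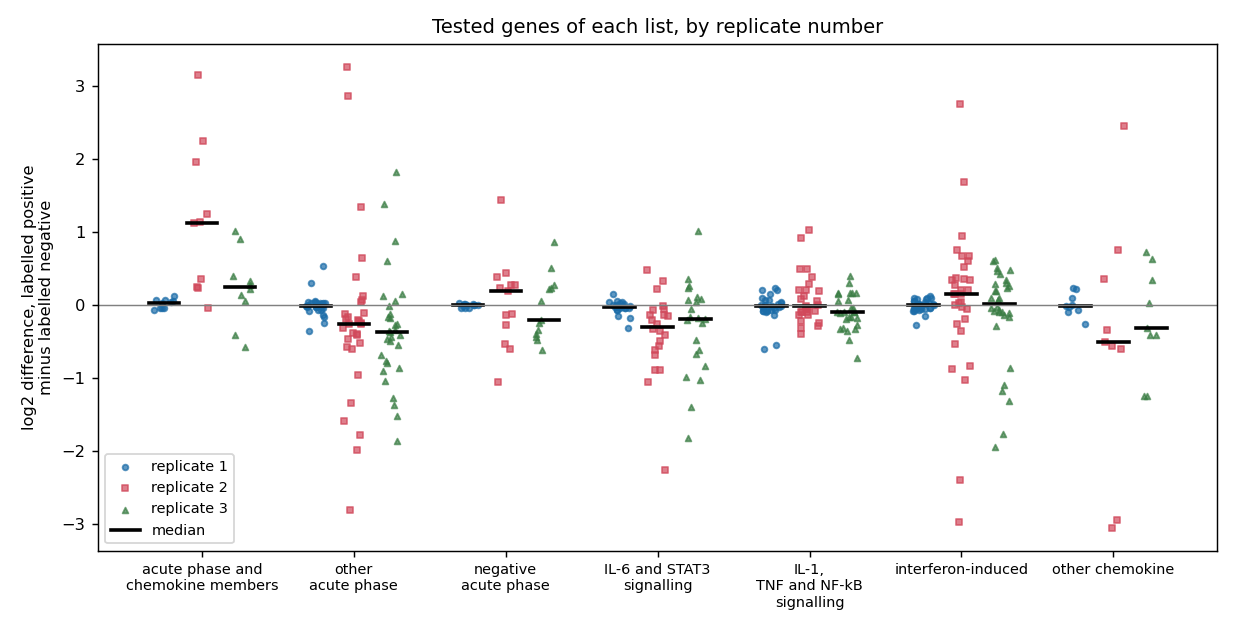
Log2 difference between libraries labelled Axin2-positive and Axin2-negative within each replicate number, for every tested gene of each list, with black bars at the medians. The 10 acute phase and chemokine genes have medians of 0.031, 1.12 and 0.25 in replicates 1, 2 and 3, and the other acute phase genes -0.0097, -0.26 and -0.37.

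Cells other than hepatocytes can make several of these products, so their markers were read in the same libraries. Neutrophils are rich in lipocalin 2, and none of their 8 markers in the table passed the filter on low counts, with S100a9 at 0 or 1 read in each library. Macrophage markers summed to 35.3 to 96.6 CPM in libraries labelled Axin2-positive and 35.0 to 106.8 CPM in libraries labelled Axin2-negative, and most of that was Mpeg1. The Kupffer cell gene Clec4f was at 1.05, 0.101 and 1.24 CPM in libraries labelled Axin2-positive, against 0.909, 1.13 and 7.25 CPM in libraries labelled Axin2-negative. The fit of replicates 2 and 3 called 0 of 12 macrophage markers higher and 8 lower, beside 3.43% of all genes higher and 4.01% lower. Endothelial markers summed to 71.0, 4.02 and 71.2 CPM in libraries labelled Axin2-positive, against 69.6, 10.8 and 96.7 CPM in libraries labelled Axin2-negative, and 12 of 13 differed between the replicate numbers (edgeR), beside 11.1% of all genes. Among libraries labelled Axin2-positive, leaving out replicate 2 gave a count of 7, beside 3.03% of all genes. Leaving out replicate 3 gave a count of 1, beside 0.772%. The count was 0, beside 0.8%, when the library labelled Axin2-negative 3 was left out. Lymphocyte markers summed to 0.103, 0.595 and 0.0698 CPM in libraries labelled Axin2-positive, against 0.125, 2.61 and 0.114 CPM in libraries labelled Axin2-negative. In replicates 2 and 3 the macrophage, endothelial and lymphocyte sums were each lower in the library labelled Axin2-positive than in its partner. The neutrophil sum was 0.0926, 0.101 and 0.0930 CPM in libraries labelled Axin2-positive, against 0.0418, 0.0747 and 0.205 CPM in libraries labelled Axin2-negative. Genes of the liver zones differed by label in replicates 2 and 3. Pericentral genes summed to 5369, 21820 and 20770 CPM in libraries labelled Axin2-positive, against 5375, 8627 and 7757 CPM in libraries labelled Axin2-negative. The fit of replicates 2 and 3 called 17 of 20 higher and 0 lower, beside 3.43% of all genes higher and 4.01% lower. Periportal genes summed to 16420, 10520 and 11430 CPM in libraries labelled Axin2-positive, against 16400, 21290 and 20380 CPM in libraries labelled Axin2-negative. That fit called 0 of 19 higher and 18 lower, beside the same shares. Over 6 libraries edgeR called 0 genes of either zone, with or without the replicate block, beside 0% of all genes. The part of zonation in the differences of the 10 genes was not tested.

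Genes whose profiles lay closest to those of the 3 most variable of the 10 were found by the root mean square distance of centred log2 CPM over 6 libraries, among 10517 other genes. Closest to Lcn2 were Hpgd (distance 0.21), which encodes a prostaglandin-degrading enzyme, Cxcl9 (0.27) and Fhad1 (0.37). Hpgd was at 124.8, 365.8 and 392.3 CPM in libraries labelled Axin2-positive, against 122.8, 55.8 and 152.2 CPM in libraries labelled Axin2-negative. Closest to Saa2 were Cyp2c29 (0.35), Tmem14a (0.37) and Gstm1 (0.39), of which the first and the third belong to families of near-identical detoxification genes. Closest to Saa1 were Samd4 (0.23), Ugdh (0.29) and 6430548M08Rik (0.30). Ugdh, which makes UDP-glucuronic acid, was at 66.3, 336.7 and 134.1 CPM in libraries labelled Axin2-positive, against 67.4, 169.7 and 113.4 CPM in libraries labelled Axin2-negative.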

How the data were processed

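RNA-seq libraries of sorted hepatocytes were analysed from whole-number counts per gene symbol, deposited by the authors for 6 libraries. The submitters' processing notes name TopHat2 2.0.11, Cuffdiff 2.2.2 and mm10. Which program counted reads, and whether by strand, is not given in the sources used here. A second table that the authors deposited holds a single FPKM for each transcript and group, with p-values and q-values. Libraries were grouped by label, and columns were matched by index. Separate mice are not stated for the libraries, so p-values refer to these libraries. Without the replicate number in the model, they measure the spread between libraries of a label. With it, they measure the spread left after label and replicate number are fitted.

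From these counts, edgeR 4.0.16 (R 4.3.3) gave quasi-likelihood tests of the group, after its standard low-count filter and TMM scaling. P-values were adjusted over all genes tested by Benjamini-Hochberg, with 0.05 as threshold. Each SE is the size of the log2 fold change divided by the square root of its F statistic. The comparison of replicate numbers used the additive model of group and number. CPM values use TMM-scaled totals. Same-numbered libraries deviated together from their group means (r over genes 0.68, 0.82 and 0.75, and at most 0.14 for other pairs). The numbers therefore pair the libraries. Fold changes given for each of the 10 genes over 6 libraries come from the fit without this pairing, and the block fit used it. DESeq2 1.42.0 and limma-voom (limma 3.58.1), other scalings, filters and left-out libraries were alternatives. Intervals cover counting error only. The group, block and replicate-number fits were tested on simulated data with the same spread for all genes. The fit of replicates 2 and 3 was not tested in this way. The 10 genes, the lists and the fits were chosen with earlier results of these data known. Named genes were the 10, the 3 most abundant and 2 lowest in p of each list per fit, and the nearest profiles. Positions are from GENCODE annotation and promoters from RefSeq, both GRCm38.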

Additional observations from a re-analysis of the deposited data

How the results depend on the processing

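All 10 fitted log2 fold changes kept their positive sign with DESeq2, limma-voom, the other scalings and filters and the replicate block. The sign turned for Saa1 (-0.31) and Saa2 (-0.14) without both libraries of replicate 2 under the replicate block, for Saa1 (-0.47), Saa2 (-0.038) and Hp (-0.020) without the library labelled Axin2-positive 2, for Apcs (-0.067) without the library labelled Axin2-negative 2, and for Orm1 without the library labelled Axin2-positive 1 (-0.068) or the library labelled Axin2-negative 3 (-0.024). The replicate block without both libraries of replicate 1 called 1 of the 10 and 922 of all genes, against 0 and 0. The replicate block over all 6 libraries called 0 and 0, and changed no call by label. Leaving out single libraries gave 0 of the 10 and 0 to 6 of all genes (6 without the library labelled Axin2-positive 1), and log2 fold changes reached 0.80 for Saa1, 1.25 for Saa2, 0.27 for Orm1, 0.24 for Hp and 0.58 for Apcs. Between replicate numbers, DESeq2 called 2 of the 10 and 4729 of all genes, against 0 and 1364, and leaving out single libraries gave 0 to 2 of the 10 and 97 to 2679 of all genes. The cause was not tested. An offset of 0.5 CPM changed no direction within a pair. Depth limits Cxcl10 most, whose lowest library had 156 reads.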

Other observations

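Immediate-early genes, which answer within minutes to stress and to cell isolation, were read beside the 10 genes. The fit of replicates 2 and 3 called 1 of 23 tested higher and 8 lower (edgeR), beside 3.43% of all genes higher and 4.01% lower, and 11 of 24 differed between the replicate numbers, beside 11.1% of all genes. That last count was 4 without either library of replicate 2, 0 without either library of replicate 3 and 19 without the library labelled Axin2-negative 1. Jun was at 1137, 552 and 605 CPM in libraries labelled Axin2-positive, against 1174, 785 and 909 CPM in libraries labelled Axin2-negative (adjusted p = 0.0432 in the fit of replicates 2 and 3). Egr2 was at 43.8, 4.89 and 9.72 CPM in libraries labelled Axin2-positive, against 42.9, 10.3 and 21.1 CPM in libraries labelled Axin2-negative (adjusted p = 0.00931). Myc differed between the replicate numbers (edgeR adjusted p = 0.00581), at 55.8 CPM in library 2 labelled Axin2-positive, 37.0 CPM in library 2 labelled Axin2-negative and 7.43 to 10.6 CPM in the other 4. Alas2, an enzyme of haem synthesis listed with red cell markers, was at 191.1 CPM in library 2 labelled Axin2-positive, 199.8 CPM in library 2 labelled Axin2-negative and 15.8 to 26.9 CPM in the other 4 libraries (edgeR adjusted p = 0.00445).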
